A study of Mus musculus with 2 samples.

Results

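Cd40lg, Il21, Inhba, Proc, St18, Lrrc39 and Aig1 were followed in single CD8 T cells that had been driven towards the interleukin-17-producing Tc17 state. The 7 genes were picked by symbol out of 32285 counted genes, with measured values of these same cells in view, and all 7 are present in both matrices. Their differences between the libraries, and how far they occur in the same cells, are therefore given as a description. The study compared CD8 T cells from mesenteric lymph nodes of wild-type C57/B6N mice with those of mice in which floxed Nfatc1 (Nfatc1 f/f) is deleted by Cd4-Cre, which acts in developing T cells and so reaches CD8 as well as CD4 cells. NFATc1 is a calcium- and calcineurin-dependent transcription factor of activated T cells. Both groups were polarised with a Th17 cytokine kit (mouse CytoBox Th17) and restimulated for 3 hours with PMA at 100 ng/ml and ionomycin at 10 µg/ml, so every cell measured had received both agents and no unstimulated group is compared. Each group is 1 library, and the sources used here state neither the age nor the number of the mice. The spread between mice or cultures was thus not measured, no difference between the libraries could be tested, and no p-value is given.

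After removal of barcodes with fewer than 500 genes or more than 10% mitochondrial counts, 1018 and 709 cells remained in the wild-type-labelled and deficient-labelled library. They held 24452538 and 17898193 unique molecular identifiers (UMIs, each a count of 1 captured transcript), with medians of 20906 and 21436 UMIs per cell. Nfatc1 itself was counted at 39.8 and 136 CPM (counts scaled to a common total per library; where no library is named, the wild-type-labelled value comes first), against the direction of the labels. The kit counts transcripts near their 3′ end and the sources used here do not name the deleted exons, so this checks neither the deletion nor the labels, and the libraries are called by their labels throughout. A UMI of Cd8b1 was found in 96.6% and 96.5% of cells, and Cd4 UMIs in 3 and 4 cells. Zbtb7b, the other CD4 helper marker listed, stood at 2.70 and 1.17 CPM, and summed B, myeloid, dendritic and NK marker levels stayed between 0.559 and 3.31 CPM. The 2 libraries shared 0 barcodes.

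CD40 ligand, encoded by Cd40lg, is a membrane protein of the tumour necrosis factor family. Activated helper T cells use it to engage CD40 on B cells and dendritic cells. Interleukin-21, encoded by Il21, is a cytokine of follicular helper and type 17 T cells that signals through the interleukin-21 receptor, the common gamma chain and STAT3. Both are best known from CD4 cells. The other 5 genes have more diverse roles: Inhba encodes the subunit whose dimer is activin A, a ligand of the TGF-beta family, and Proc encodes protein C, an anticoagulant protease precursor made mainly by the liver. St18 encodes a zinc-finger transcription factor of the Myt1 family, Lrrc39 a leucine-rich-repeat protein of striated muscle, and Aig1 a membrane hydrolase of fatty acid esters of hydroxy fatty acids.

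All 7 are protein-coding genes in the GENCODE M21 annotation, whose mm10 coordinates are given here and, for Proc, beside its counts. Cd40lg lies at chrX:57212143-57224042 on the plus strand, Il21 at chr3:37222759-37232636 on the minus strand, and Inhba at chr13:16011851-16031621 on the plus strand. St18 lies at chr1:6487231-6860940 (plus), Lrrc39 at chr3:116562973-116583134 (plus) and Aig1 at chr10:13647054-13868980 (minus). Il21 neighbours Il2, the interleukin-2 gene, at a distance of 96799 bp with 0 protein-coding genes between them. An antisense gene, Gm12534, overlaps Il21, and Gm48444 and B230303A05Rik overlap Inhba on the opposite strand. Gm12534 held only 13 and 6 UMIs and Gm48444 9 and 1, and no count of B230303A05Rik is given here. The sources used here do not state whether strand was used in the counting. Lrrc39 overlaps Gm42940 and Trmt13 on the opposite strand, and Trmt13 held 629 and 418 UMIs, so the Lrrc39 count is uncertain.

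RefSeq promoter windows (build GRCm38.p6) were found for 4 of the 7 genes. The 250 bases before the RefSeq start of Il21, Inhba and Aig1 are shown because these 3 genes were more than 2-fold lower in the deficient-labelled library. Capitals mark copies of GGAAA, the core that NFAT proteins bind, or of its reverse complement TTTCC. The motifs were chosen after the values had been seen.
Il21, chr3:37232637-37232886, minus strand: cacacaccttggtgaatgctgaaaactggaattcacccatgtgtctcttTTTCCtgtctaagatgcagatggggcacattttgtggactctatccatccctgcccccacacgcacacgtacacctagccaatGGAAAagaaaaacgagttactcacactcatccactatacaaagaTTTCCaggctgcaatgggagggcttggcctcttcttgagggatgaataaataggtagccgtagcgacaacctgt
Inhba, chr13:16011601-16011850, plus strand: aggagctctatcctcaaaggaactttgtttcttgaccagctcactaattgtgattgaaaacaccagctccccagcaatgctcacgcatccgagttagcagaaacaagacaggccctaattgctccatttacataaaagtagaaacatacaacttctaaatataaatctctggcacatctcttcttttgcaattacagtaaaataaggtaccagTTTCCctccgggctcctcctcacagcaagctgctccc
Aig1, chr10:13868958-13869207, minus strand: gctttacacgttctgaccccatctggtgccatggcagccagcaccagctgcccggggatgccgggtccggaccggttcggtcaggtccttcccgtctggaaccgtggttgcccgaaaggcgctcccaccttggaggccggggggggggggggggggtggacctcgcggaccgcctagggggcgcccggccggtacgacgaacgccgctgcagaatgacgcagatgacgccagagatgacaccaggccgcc
The Il21 window holds 3 copies of the core, the Inhba window 1, and the Aig1 window 0, as does that of Lrrc39. None of the 4 holds the AP-1 site TGACTCA or its reverse complement TGAGTCA. Of 32851 mouse promoter windows of the same length, 55.6% hold at least 1 core, 21.4% hold 2 or more, and 4.46% hold the AP-1 site. A match of 5 bases is a description of the letters and shows no binding.

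Between the libraries, Il21, Inhba and Aig1 were lower in the deficient-labelled library, whereas St18 and, with all cells included, Cd40lg were at nearly the same level. Il21 was counted with 894 UMIs, or 36.6 CPM (95% Poisson interval 34.2 to 39.0), in the wild-type-labelled library. The deficient-labelled library held 285, or 15.9 CPM (14.1 to 17.9), which is 0.436 times as much (0.380 to 0.498). Inhba stood at 318 CPM (311 to 325) and 136 CPM (131 to 141), a ratio of 0.427 (0.408 to 0.447). Aig1 stood at 73.4 CPM (70.0 to 76.8) and 33.2 CPM (30.6 to 36.0), a ratio of 0.452 (0.412 to 0.497). None of these 3 pairs of intervals overlapped. The intervals cover counting error only, treat UMIs as independent, and leave out the spread between cells and between mice. Such sums do not tell fewer cells with a transcript from less transcript per cell, so counts per cell follow.

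Cd40lg held 755 UMIs, or 30.9 CPM (28.7 to 33.2), and 534 UMIs, or 29.8 CPM (27.4 to 32.5), a ratio of 0.966 (0.863 to 1.08). St18 stood at 15.1 CPM (13.6 to 16.7) and 14.5 CPM (12.8 to 16.3), a ratio of 0.959 (0.815 to 1.13). For both genes the intervals overlapped and the ratio's interval included equality. For Cd40lg this depended on a few cells: without the 3 and 4 cells that held a Cd4 UMI, described further on, its ratio was 0.813 (0.721 to 0.916), and the interval then lay below equality. That removal was added after seeing the data and the interval treats UMIs as independent, so no difference is read from it. Lrrc39 stood at 5.19 CPM and 2.74 CPM from 127 and 49 UMIs, and Proc at 2.82 CPM and 0.0559 CPM from 69 UMIs and 1 UMI. On the log2 scale with a pseudocount of 1 CPM, the ratio of the deficient-labelled to the wild-type-labelled library was -1.15 for Il21, -1.22 for Inhba and -1.12 for Aig1. It was -0.05 for Cd40lg, -0.06 for St18, -0.73 for Lrrc39 and -1.86 for Proc. Of the 4 genes that reached 20 CPM in a library (Cd40lg, Il21, Inhba, Aig1), 3 were lower by 2-fold or more in the deficient-labelled cells and 0 were higher. Over all 5584 genes at that level, 2.08% were lower and 2.27% higher by 2-fold or more, and the median log2 ratio was 0.03. The genes were assembled with such differences in view, so nothing is read from their count against those shares.

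**Figure D1:**
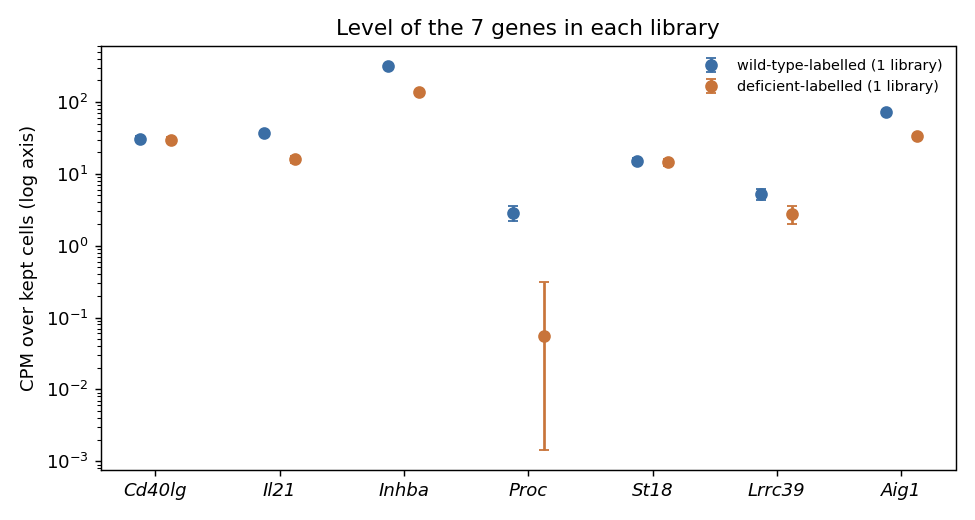
Level of each gene (CPM, log axis) in the wild-type-labelled (blue) and deficient-labelled (orange) library, 1 library each. Bars are 95% Poisson intervals of the count, often smaller than the points. Il21, Inhba and Aig1 lie lower in the deficient-labelled library, while Cd40lg and St18 nearly coincide.

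Cd40lg was found in few cells and was abundant in some of them. A UMI of it was found in 82 of 1018 wild-type-labelled cells (8.06%) and in 41 of 709 deficient-labelled cells (5.78%). Cells with 5 or more UMIs numbered 34 and 24, 3.34% and 3.39% of the cells, and they held 90.1% and 94.9% of all Cd40lg UMIs. The highest cells held 68 and 57 UMIs. The cell with 68 carried Cd8b1 but no Cd4 UMI, together with 520 Il17a and 1247 Il2 UMIs. Il21 was found in 190 (18.7%) and 66 (9.31%) cells, and 52 and 19 cells with 5 or more UMIs held 74.3% and 68.8% of its UMIs. The highest cells held 67 and 21 UMIs of Il21.

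Inhba and Aig1 were spread over many more cells. Inhba was found in 509 of 1018 and 157 of 709 (22.1%) cells and Aig1 in 522 (51.3%) and 200 (28.2%). For Inhba, 273 and 63 cells held 5 or more UMIs, with up to 200 and 258 in 1 cell, and 94.1% and 93.7% of its UMIs sat in them. Among cells with any Inhba UMI the median was 5 and 2 UMIs. For Aig1 that median was 2 in both, so its lower sum went with fewer positive cells. St18 was found in 122 (12.0%) and 82 (11.6%) cells, mostly at 1 to 4 UMIs.

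For Proc and Lrrc39, a single cell held much of the count. Proc, at chr18:32123126-32139570 on the minus strand, held 69 UMIs and 1 UMI. In the wild-type-labelled library 68 of 69 Proc UMIs came from 1 cell, which also held 497 Il17a, 939 Il2, 51 Inhba, 4 St18 and 5 Aig1 UMIs but no Cd40lg or Il21. A different cell held 60 of the 127 Lrrc39 UMIs. Without the highest cell of each library, the log2 ratio of Lrrc39 was -0.07 and that of Proc was -0.06. No level of Proc or Lrrc39 is therefore described as a difference between the libraries. Scrublet, a doublet caller, marked neither of these cells as a doublet.

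**Figure D2:**
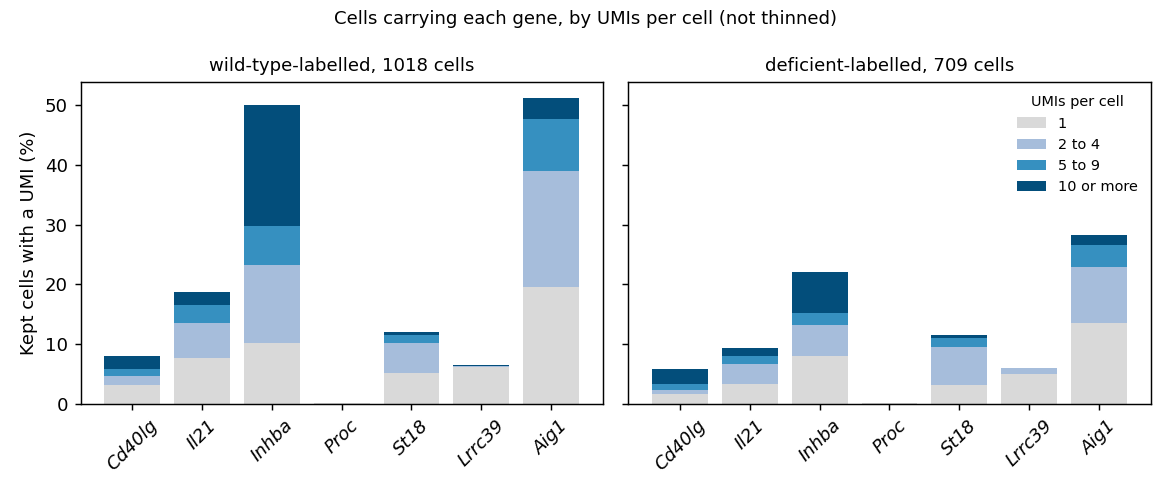
Share of kept cells (%) with a UMI of each gene before thinning, split by the number of UMIs in the cell, for 1018 wild-type-labelled and 709 deficient-labelled cells. Cells with 10 or more UMIs make up 22 of the 82 and 17 of the 41 cells with Cd40lg, whereas St18 and Lrrc39 are mostly at 1 to 4 UMIs.

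Shares of cells depend on depth, so cells were thinned to 10000 UMIs each. The 50 and 44 shallower cells dropped out, leaving 968 and 665. At this depth Cd40lg was found in 6.30% (95% Clopper-Pearson interval 4.85 to 8.02) and 4.66% (3.19 to 6.55) of cells. Il21 was found in 12.1% (10.1 to 14.3) and 6.32% (4.59 to 8.44), and Inhba in 42.7% (39.5 to 45.8) and 15.6% (13.0 to 18.6). Aig1 was found in 34.8% (31.8 to 37.9) and 15.6% (13.0 to 18.6), and St18 in 8.99% (7.26 to 11.0) and 8.27% (6.29 to 10.6). The intervals of the 2 libraries were apart for Il21, Inhba and Aig1 and overlapped for Cd40lg and St18. No cell type known to lack these genes is present in the libraries, so the share of UMIs from free RNA was not measured here. At least 3 of the genes were found together in 73 of 968 cells (7.54%) and in 9 of 665 (1.35%), and 0 cells held more than 4 of them. Inhba and Aig1 alone were found in fewer deficient-labelled cells, and no expected share was computed for 3 genes. No difference in co-occurrence is therefore read from these counts.

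Relative to their separate shares, Cd40lg and Il21 were, of the 6 genes without Proc, the pair found together most often at this depth and seed. Proc was left out because it rests on 1 cell per library at this depth. In the wild-type-labelled library Il21 was found in 21 of 61 cells with Cd40lg, 34.4% (22.7 to 47.7), and in 10.6% (8.66 to 12.8) of the other 907 cells. That is 3.25 times as often, and the intervals were apart. Among deficient-labelled cells Il21 was found in 4 of 31 with Cd40lg, 12.9% (3.63 to 29.8), and in 5.99% (4.28 to 8.13) of the other 634. The ratio of 2.15 rests on these 4 cells and the intervals overlapped. Whether the overlap of the 2 genes differs between the libraries was not tested.

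The overlap was larger in Cd40lg UMIs than in cells with Cd40lg, both counted before thinning. Of those cells, 35 of 82 (42.7%) and 7 of 41 (17.1%) held Il21. The 10 cells with most Cd40lg held 56.6% and 68.9% of its UMIs, so the UMI shares rest on few cells. Of the 755 Cd40lg UMIs of the wild-type-labelled library, 495 (65.6%) were in the 190 cells with Il21, cells that held 24.9% of all its UMIs. Of the deficient-labelled library's Cd40lg UMIs, 169 of 534 (31.6%) were in the 66 cells with Il21, which held 12.5% of all UMIs. Before thinning, 12 wild-type-labelled cells and 2 deficient-labelled cells held 5 or more UMIs of both genes. Conversely, 29.9% and 14.0% of Il21 UMIs were in cells with Cd40lg, which held 10.2% and 7.26% of all UMIs. Most cells with Il21 thus held no Cd40lg UMI. With 2 UMIs needed for a positive cell, the ratio of Il21 shares in the wild-type-labelled library was 7.98 instead of 3.25, and at 5000 UMIs per cell it was 5.21.

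For St18 with Cd40lg the result depended on the random thinning. It was found in 14 of 61 cells with Cd40lg (23.0%, 13.2 to 35.5) against 8.05% (6.36 to 10.0) of other wild-type-labelled cells, a ratio of 2.85. With another random seed at the same depth the counts were 7 of 47 (14.9%, 6.20 to 28.3) against 8.14% (6.46 to 10.1), a ratio of 1.83 with overlapping intervals, and without thinning the ratio was 2.24. Among deficient-labelled cells the counts were 2 of 31 (6.45%) against 8.36%, a ratio of 0.772. That ratio was 1.21 with another seed, 1.29 without thinning and 1.64 with at least 2 UMIs, so no direction is given for it. Inhba was found in 47.5% of cells with Cd40lg and 42.3% of the others, and in 16.1% against 15.6% in the deficient-labelled library. For Aig1 the shares were 36.1% against 34.7%, and 12.9% against 15.8%. The intervals of Inhba and Aig1 overlapped in both libraries. Their ratios moved by over 1.5 times in some settings: without thinning that of Inhba in the deficient-labelled library was 1.85 instead of 1.03. With at least 2 UMIs those of Aig1 were 0.566 instead of 1.04, and 1.36 instead of 0.818. Lrrc39 was found in 0 of 61 and 1 of 31 cells with Cd40lg, and the upper Clopper-Pearson bound of the 0 is 5.87%.

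Cells with Il21 held Inhba in 52.1% (42.7 to 61.5) of cases against 41.4% (38.0 to 44.8) of the others in the wild-type-labelled library. They held Aig1 in 46.2% (36.9 to 55.6) against 33.3% (30.1 to 36.5), a ratio of 1.39. The interval for Aig1 was just apart, but overlapped with another random seed (35.0 to 53.1 against 32.2 to 38.7), and that for Inhba overlapped. The deficient-labelled cells held Inhba in 19.0% of cases against 15.4% and Aig1 in 21.4% against 15.2%, with overlapping intervals. These 42 cells with Il21 gave unsteady ratios. For Inhba the ratio was 1.24, but 1.93 with another seed and 2.02 without thinning, where 40.9% (29.0 to 53.7) against 20.2% (17.2 to 23.5) were apart. For Aig1 it was 1.41, but 0.607 at 5000 UMIs per cell. Leaving out Proc, 10 and 9 of 15 pairs were found together in more cells than the product of their shares gives. The median of observed over expected cells was 1.11 and 1.05, from 0 to 2.85 and from 0.337 to 2.04. Cd40lg with Il21 was the highest of these pairs in both libraries at this depth and seed. Cd40lg with St18 came next in the wild-type-labelled library at 2.55, and the remaining 13 pairs there ran from 0 to 1.52. In the deficient-labelled library St18 with Lrrc39 came next at 1.91. The first place of Cd40lg with Il21 did not hold there without thinning. That pair was then found in 7 cells against 3.82 expected, and Il21 with Inhba in 27 against 14.6, so they were nearly level.

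**Figure D3:**
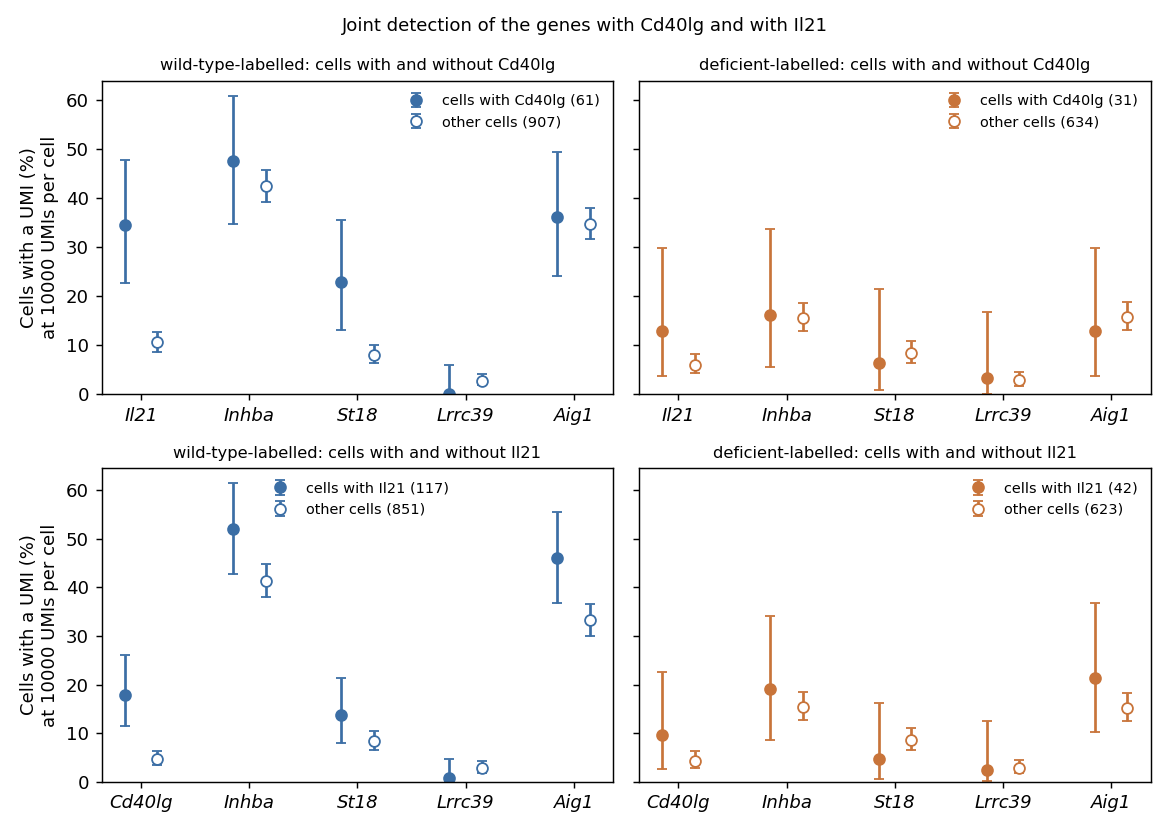
Share of cells (%) with a UMI of each gene at 10000 UMIs per cell, in cells with Cd40lg (top) or Il21 (bottom) as filled points and in all other cells as open points, with 95% Clopper-Pearson intervals and cell numbers in the legends. In the wild-type-labelled library Il21 was found in 34.4% of cells with Cd40lg and 10.6% of other cells, while Inhba and Aig1 differed little between the same cells.

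Most cells with Cd40lg carried CD8 transcripts, and 2 of 82 and 3 of 41 had neither a Cd8a nor a Cd8b1 UMI. Before thinning, Cd8b1 was found in 78 of 82 wild-type-labelled cells with Cd40lg (95.1%) and in 96.7% of the others. The deficient-labelled counts were 38 of 41 (92.7%) and 96.7%. Of the 3 wild-type-labelled cells with a Cd4 UMI, 1 held Cd40lg, and those 3 cells held 1.72% of Cd40lg UMIs. Of the 4 deficient-labelled cells with a Cd4 UMI, 3 held Cd40lg and 2 of those had no Cd8a or Cd8b1 UMI. These 4 cells, 0.564% of the library, held 92 of 534 Cd40lg UMIs (17.2%) and 16 of 285 Il21 UMIs (5.61%). Without the cells with a Cd4 UMI, Cd40lg stood at 30.6 and 24.9 CPM and its log2 ratio was -0.29 instead of -0.05. Its joint detection with Il21 then had a ratio of 3.30 and 1.78. Other markers also moved with Cd40lg in the deficient-labelled library. Zbtb7b was found in 4 of the 41 cells with Cd40lg (9.76%) against 2.10% of others. Ikzf2, which regulatory T cells express, was found in 8 of the 41 (19.5%) against 4.34%. In the wild-type-labelled library these shares were 7.32% against 4.91% and 18.3% against 14.4%. With 5 or more Cd40lg UMIs needed, they turned to 2.94% against 5.18% and 8.82% against 14.9%. The deficient-labelled shares were then 12.5% against 2.19% and 16.7% against 4.82%. Foxp3, the defining gene of regulatory T cells, was found in 0 cells with Cd40lg in both libraries. Zbtb16, a marker of invariant T cells, held 20 UMIs in the deficient-labelled library, 19 of them in 2 cells with Cd40lg, and the 3 cells with Zbtb16 held 54 of its 534 Cd40lg UMIs. The gamma-delta markers Trdc and Tcrg-C1 were each found in 2 of the 41 deficient-labelled cells with Cd40lg, and in 0 and 2 of the 82 wild-type-labelled ones, while Sox13 was found in none of either. The part of these cells in the Cd40lg level was tested only for Cd4.

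Both Cd40lg and Il21 were found more often in cells with much Il17a. Cells were called Il17a-high with at least 10 Il17a UMIs per 10000, which 617 and 164 cells reached. Cd40lg was found in 51 of the 617 (8.27%, 6.22 to 10.7) and in 10 of the other 351 cells (2.85%, 1.37 to 5.18), a ratio of 2.90. In the deficient-labelled library it was found in 14 of 164 (8.54%, 4.75 to 13.9) and 17 of 501 (3.39%, 1.99 to 5.38), a ratio of 2.52, with overlapping intervals that were apart without thinning (7.08 to 17.0 and 2.46 to 5.96). Among Il17a-high cells the share with Cd40lg was thus nearly the same in both libraries. Wild-type-labelled cells held Il21 in 15.1% (12.3 to 18.1) of Il17a-high and 6.84% (4.43 to 10.0) of other cells. For deficient-labelled cells these shares were 9.15% (5.21 to 14.6) and 5.39% (3.58 to 7.74). The ratios were 2.20 and 1.70, and the intervals overlapped in the deficient-labelled library but were apart without thinning (11.3 to 22.8 and 4.93 to 9.44). Il17a itself was lower in the deficient-labelled library, at 3572 against 11093 CPM, so its cells are spread differently over the Il17a ranges.

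By finer range, Cd40lg was found in 1 of 118 wild-type-labelled cells with no Il17a UMI and in 9 of 233 with 1 to 9. It was found in 10 of 211 with 10 to 99 and in 41 of 406 (10.1%) with 100 or more. The deficient-labelled counts were 8 of 209, 9 of 292, 5 of 71 and 9 of 93 (9.68%). Cells without Il17a thus held Cd40lg in 0.847% (0.0215 to 4.63) and 3.83% (1.67 to 7.40) of cases, with overlapping intervals. With a limit of 1 Il17a UMI per 10000 the ratio was therefore 8.33 and 1.32. Over the 4 ranges, wild-type-labelled cells held Il21 in 5.93%, 7.30%, 10.4% and 17.5% of cases, and deficient-labelled cells in 5.74%, 5.14%, 5.63% and 11.8%.

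St18 was found in 11.5% of Il17a-high and 4.56% of other wild-type-labelled cells, a ratio of 2.52, but in 8.54% and 8.18% of deficient-labelled cells. Inhba was found in 48.3% against 32.8% and in 22.6% against 13.4%. Aig1 was found in 40.7% against 24.5% and in 20.1% against 14.2%. At each Il17a range Inhba was found in fewer deficient-labelled than wild-type-labelled cells: 14.4% against 33.1% with no Il17a UMI and 22.6% against 46.6% with 100 or more. The intervals of the 2 libraries were apart for Inhba in all 4 ranges.

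**Figure D4:**
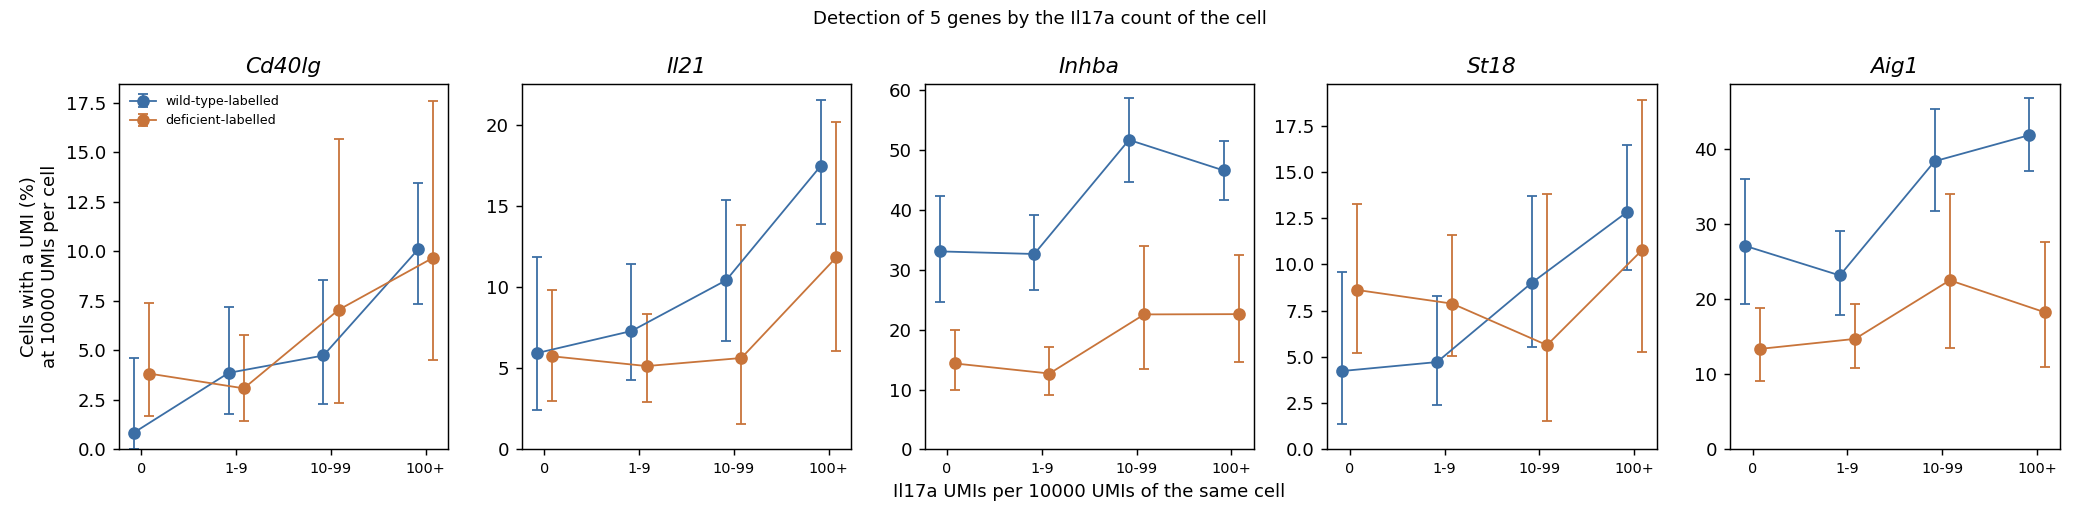
Share of cells (%) with a UMI of 5 of the genes at 10000 UMIs per cell, by the Il17a UMIs of the same cell, with 95% Clopper-Pearson intervals. Blue is the wild-type-labelled library (118, 233, 211 and 406 cells per range) and orange the deficient-labelled one (209, 292, 71 and 93). Cd40lg reaches 10.1% and 9.68% in the highest range, while Inhba is lower in the deficient-labelled library in every range.

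The joint detection of Cd40lg and Il21 was also present within Il17a ranges of the wild-type-labelled library. Among Il17a-high cells Il21 was found in 16 of 51 cells with Cd40lg (31.4%) and in 77 of the other 566, a ratio of 2.31. Among the other cells it was found in 5 of 10 and 19 of 341, a ratio of 8.97. Among deficient-labelled cells they were 1 of 14 against 14 of 150, and 3 of 17 against 24 of 484. Those numbers are too small to order. Il2 moved with both genes in the wild-type-labelled library: its cells with Cd40lg held a mean of 201 Il2 UMIs per 10000 and the others 73.9, and cells with Il21 held 156 against 71.7. Within cells at 10 or more Il2 UMIs per 10000, Il21 was found in 20 of 57 cells with Cd40lg and 70 of 525 others, a ratio of 2.63. Deficient-labelled cells with Cd40lg held a mean of 76.9 Il2 UMIs against 95.5 (medians 54 and 59). An Il2 UMI was found in 96.8% of them against 93.5%, so these 31 cells give no clear direction. Deficient-labelled cells with Il21 held a mean of 126 against 92.5, the same direction as in the wild-type-labelled library. Cells with Cd40lg had median totals of 25397 and 23518 UMIs before thinning, against 21077 and 21986 in the others, and the part of this in the joint counts beyond the thinning was not tested.

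Ifng, the type 1 cytokine gene, stood at 1319 and 7368 CPM, and Inhba was scarcer in cells that held much of it. Cells were split at 10 UMIs per 10000 of Il17a and of Ifng. Inhba was found in 50.6% (46.4 to 54.8) of 573 wild-type-labelled cells with Il17a only, but in 13.0% (4.94 to 26.3) of 46 with Ifng only and 18.2% (8.19 to 32.7) of 44 with both. In the deficient-labelled library it was found in 24.6% (17.5 to 32.9) of 130 cells with Il17a only and 10.2% (6.80 to 14.4) of 266 with Ifng only. Il21 was found in 11.5% (6.60 to 18.3) of those 130 and 3.01% (1.31 to 5.84) of those 266, with intervals apart. In the wild-type-labelled library it was found in 14.7% of cells with Il17a only, 4.35% of those with Ifng only and 20.5% (9.80 to 35.3) of those with both. Cd40lg was found in 8.55% and 8.46% of cells with Il17a only, and in 4.35% and 2.63% of those with Ifng only. Within cells that held Il17a only, Cd40lg was thus at nearly the same share in both libraries, while Inhba was lower in the deficient-labelled one. Cells with neither held Cd40lg in 2.62% and 4.26% of cases. Il21 was in 7.21% and Inhba in 35.7% (30.4 to 41.4) of 305 such wild-type-labelled cells, the latter apart from Ifng only. Among 235 deficient-labelled ones Il21 was in 8.09% (4.94 to 12.3) and Inhba in 17.0% (12.4 to 22.4), both overlapping Ifng only. Of 34 deficient-labelled cells with both cytokines, 0 held Il21, 3 held Cd40lg and 14.7% held Inhba.

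Likeness was measured across cells as Pearson's r of log2(1 + UMIs) at 10000 UMIs per cell, over 9384 genes found in at least 2% of cells of both libraries. The cells of a library share their culture and preparation, the counts are sparse, and r is given as a description. In the wild-type-labelled library Il21 was the gene most like Cd40lg, and Cd40lg the gene most like Il21, with r of 0.34 over 968 cells. Of all genes, 99% had an r below 0.105 with Cd40lg. In the deficient-labelled library r was 0.0993 over 665 cells, and 209 genes were more like Cd40lg and 281 more like Il21. These places depended on the measure: Il21 was at place 99 by likeness to Cd40lg, and Cd40lg at place 179 by likeness to Il21, without thinning (210 and 282 as measured here), and a ratio of means put them at 252 and 19. Il2 had an r of 0.23 with Cd40lg in the wild-type-labelled library, where 5 genes were higher, and of 0.06 in the deficient-labelled library, where 940 were. Il17a had low r with both genes. With Cd40lg it was 0.117 and 0.0694, where 61 and 641 genes were higher. With Il21 it was 0.115 and 0.0915, where 94 and 388 were. Inhba, Lrrc39 and Aig1 had r between -0.03 and 0.08 with either gene in both libraries, and St18 between -0.02 and 0.12. Ifng had an r of -0.14 with Il21 in the deficient-labelled library, where 9381 genes were higher. In the wild-type-labelled library that r was 0.04, of the opposite sign, and 978 genes were higher.

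The genes most like Cd40lg by the lower r of the 2 libraries were Il1r2, the decoy receptor of interleukin-1, Rgcc, Slamf6, Plk2, Camk2d, Cd84, Tnfsf11, Map3k8, Dock11 and Adamts6. Their lower r ranged from 0.12 to 0.22. Il1r2 was found in 63.9% of cells with Cd40lg against 30.2% of others, and in 54.8% against 25.1% in the deficient-labelled library. Slamf6 and Cd84 encode receptors of the SLAM family, which steady contacts between T and B cells, and Tnfsf11 encodes RANK ligand. Cd84 was found in 63.9% against 36.5% and 58.1% against 43.4% of cells, and Tnfsf11 in 65.6% against 47.7% and 74.2% against 53.0%. Those most like Il21 were Ptpn22, a phosphatase that restrains T-cell receptor signalling, Marcksl1, Rgcc, Dock11, Nr4a3, Slamf1, Camk2d, Prnp, Cd84 and Hspa4l. Nr4a3, an early-response nuclear receptor gene, was found in 50.4% of cells with Il21 against 32.2%, and in 88.1% against 71.3%. The 2 lists of 10 share 4 genes, Camk2d, Cd84, Dock11 and Rgcc. All were picked by r in these same cells, so their higher shares follow from that choice. Ranked by a ratio of means instead, 3 of the 10 for Cd40lg and 0 of the 10 for Il21 were named again.

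**Figure D5:**
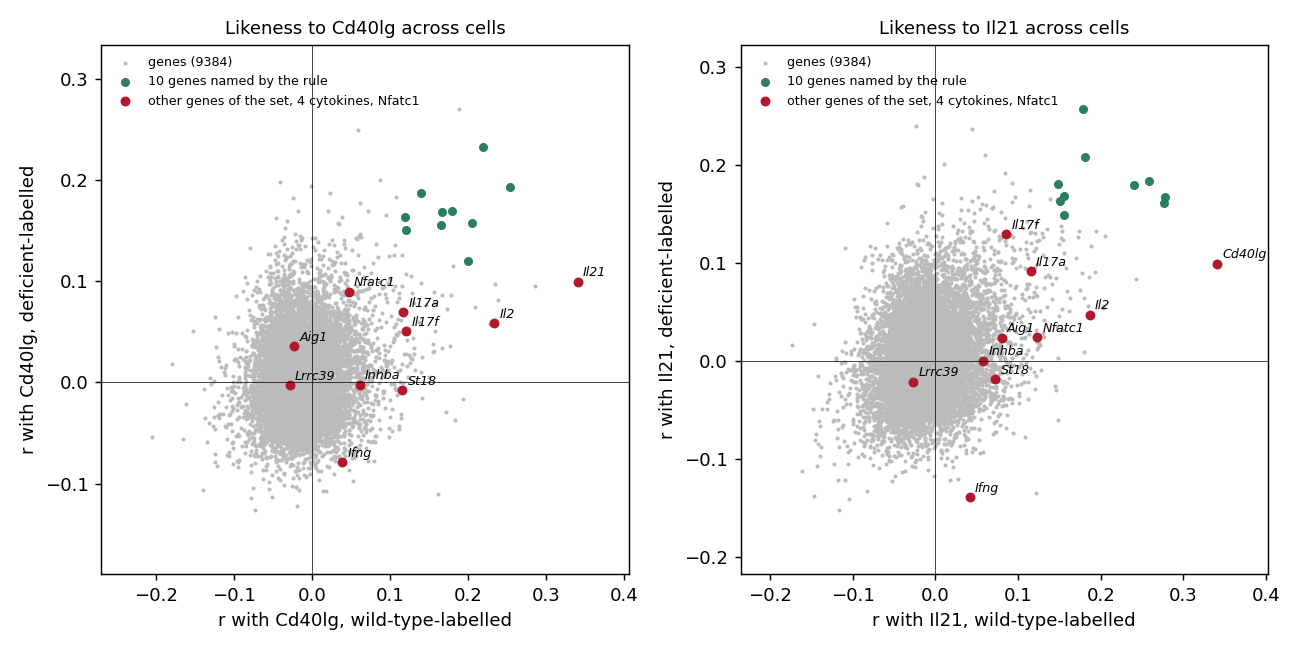
Pearson's r of each of 9384 genes with Cd40lg (left) and with Il21 (right) across cells of the wild-type-labelled (x axis) and deficient-labelled library (y axis). Cd40lg and Il21 lie far to the right at 0.34 but at 0.0993 on the y axis, and Inhba, Lrrc39 and Aig1 lie within the cloud.

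Means per cell were compared at the same thinning and seed. Of the other 6 genes, Il21 (1.72 against 0.276 UMIs per 10000) and St18 (0.459 against 0.147) had a mean at least 2-fold higher in wild-type-labelled cells with Cd40lg than in the others. In that library 1.27% of genes with a mean of at least 0.05 did so. In the deficient-labelled library 4 of the 6 reached that mean, and Il21 (0.452 against 0.170) was at least 2-fold higher, against 4.19% of genes. In cells with Il21, Cd40lg was at least 2-fold higher in both libraries (1.51 against 0.166, and 0.976 against 0.231), where 1.13% and 3.44% of genes were. The higher shares in the deficient-labelled library go with fewer positive cells, 31 and 42 against 61 and 117. The genes were picked with measured values of these same cells in view, so nothing is read from their means against those shares.

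Genes of helper and follicular T cells other than the 7 were also described, from a list of 24. Of these, 14 reached 20 CPM: 4 were higher and 2 lower by 2-fold or more in deficient-labelled cells, 8 were within 2-fold, and the median log2 ratio was 0.26. The shares over all 5584 genes at that level are 2.27% higher and 2.08% lower, with a median of 0.03, and apply to the lists that follow as well. Icos, a costimulatory receptor, stood at 194 and 75.9 CPM, and Sh2d1a, which encodes the SLAM adaptor SAP, at 63.1 and 27.3 CPM. Tnfsf8, which encodes CD30 ligand, stood at 202 and 555 CPM and Tox, a transcription factor, at 8.59 and 23.2 CPM. Cxcr5, the follicular homing receptor, held 13 and 11 UMIs, Ascl2 held 2 and 0, and Il4 held 6 and 1. Cells with Cd40lg held a mean of 14.7 UMIs of the list per 10000 against 11.1 in the other wild-type-labelled cells, and 30.5 against 13.9 in the deficient-labelled library. In the latter, Tnfsf8 alone had a mean of 12.0 against 5.82 UMIs, and it was found in 96.8% against 71.3% of cells. Bcl6, the follicular helper regulator, was found in 6.56% of wild-type-labelled cells with Cd40lg against 14.2% of others, and in 32.3% against 16.1% in the deficient-labelled library.

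On the receiving side, the libraries held few Cd40 transcripts but both chains of the interleukin-21 receptor. Cd40 held 2 and 5 UMIs. Il21r stood at 23.7 and 56.7 CPM, and Il2rg, the common gamma chain gene, at 224 and 236 CPM. Of 14 genes of CD40 and interleukin-21 signalling, 9 reached 20 CPM: Il21r was higher by 2-fold or more in deficient-labelled cells, 0 were lower, 8 were within 2-fold (2.27% and 2.08% over all genes), and the median log2 ratio was 0.04. Among 17 activin and TGF-beta genes besides Inhba, 7 reached 20 CPM, 6 were within 2-fold and Tgfbr3, the co-receptor betaglycan, was lower at 29.3 and 11.8 CPM, against 2.08% of all genes. Inhbb, the other activin subunit gene, held 0 UMIs in both libraries, and Inha, the inhibin alpha subunit gene, held 12 and 7. The activin type II receptor gene Acvr2a stood at 12.4 and 18.2 CPM, and the activin antagonist genes Fst and Fstl3 held at most 2 UMIs per library. None of 11 genes of the protein C pathway reached 20 CPM. Thbd, which encodes thrombomodulin, held 0 UMIs in both libraries, and Procr, the protein C receptor gene, held 18 and 4.

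Genes of type 17 cells other than the 7 showed what else the cells with Cd40lg or Il21 held. Of 18 such genes, 14 reached 20 CPM, of which 2 were higher and 4 lower by 2-fold or more in deficient-labelled cells (2.27% and 2.08% over all genes), and the median log2 ratio was -0.16. Ccr6, a chemokine receptor of type 17 cells, stood at 52.5 and 16.2 CPM and Il10 at 95.3 and 231 CPM. Rora, a type 17 transcription factor, was found in 90.5% of deficient-labelled cells with Il21 against 59.7% of others, and in 75.2% against 67.0% in the wild-type-labelled library. Batf, an AP-1 family factor, was found in fewer cells with Il21 than others, 34.2% against 57.8% and 26.2% against 51.4%. Il17f was found in 96.7% of wild-type-labelled cells with Cd40lg and 93.3% of others, and its means were 139 against 79.5 UMIs per 10000. Cells with Il21 held Il17f means of 106 against 80.2, and 74.3 against 40.5 in the deficient-labelled library.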

How the data were processed

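Single-cell 3′ libraries (10x Genomics kit version 3.1, per the labels' protocols) were deposited by the authors as raw UMI counts per gene and barcode, 1 matrix per group. Per the file headers the counting used Cell Ranger 7.0.0, and per the submitters' processing notes the build was mm10. The annotation, and whether intronic reads were counted, were not stated. The matrices held 1149 and 754 barcodes. Those with 500 or more genes, and mitochondrial UMIs no higher than 10%, were kept (88.6% and 94.0%). The UMI sum of a gene over these cells, scaled to the library's total, gave CPM. Log2 ratios used a pseudocount of 1 CPM, and genes were described as 2-fold apart on that scale where they reached 20 CPM in 1 library. The tags used to multiplex samples were left out of all totals.

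Shares of cells and likeness were computed after thinning without replacement to 10000 UMIs per cell (seed 1). Intervals are 95%: exact Poisson for sums, conditional binomial for ratios of sums and Clopper-Pearson for shares. They cover counting error only. A count of 0 among kept cells leaves room for up to 3 counts, or 0.123 and 0.168 CPM. Scrublet (scanpy 1.11.5, expected rate 5%) marked 5 and 6 cells as doublets (0.491% and 0.846%), and these stayed in.

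No test was run, since each group is 1 library. The members, the 21 gene lists and the settings were chosen with earlier results of these data known. Genes named beside the 7 are Nfatc1, Il17a, Il17f, Ifng and Il2, the 10 most like Cd40lg and the 10 most like Il21 by the lower r of the 2 libraries, and the 2 highest and 2 lowest of a list at 20 CPM or more. Single genes of the pathways and a few markers were named after their values had been seen. The alternatives were TMM (edgeR 4.0.16, R 4.3.3) and median-ratio scaling, other pseudocounts, floors, barcode filters, depths, UMI minimums, Il17a limits and likeness measures. Leaving out the highest cell of a gene, or the cells with a Cd4 UMI, was added after seeing the data. The counting steps were tested on simulated data. No column of per-sample values was left unused.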

Additional observations from a re-analysis of the deposited data

Results flagged for a closer look

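Barcodes that the filter left out carried UMIs of some of the 7 genes above the level that a count of 0 would allow. Of 131 such barcodes in the wild-type-labelled library, with a median of 2590 UMIs, 7.63% (3.72 to 13.6) held Il21 and 26.0% (18.7 to 34.3) held Inhba, against 18.7% and 50% of kept cells. In the deficient-labelled library 8.89% (2.48 to 21.2) of 45 such barcodes held Inhba, against 22.1% of kept cells. A count of 0 would allow 2.29% and 6.67%. The left-out barcodes held 5 and 36 Cd40lg UMIs, 34 of the latter in 1 barcode. Not every gene was found in a smaller share of left-out barcodes. Lrrc39 was found in 8.40% (4.27 to 14.5) of them against 6.48% of kept cells in the wild-type-labelled library. Cd40lg was found in 6.67% (1.40 to 18.3) against 5.78% in the deficient-labelled library. All other genes of the set were found in a smaller share of them than of kept cells of the same library. Shares depend on depth and these barcodes held fewer UMIs, so lower levels are not read from this. By CPM, St18 stood at 60.5 and 52.5 in them, against 15.1 and 14.5 in kept cells. Inhba stood at 305 and 256 against 318 and 136, and Aig1 at 193 and 26.3 against 73.4 and 33.2. Il21 stood at 35.8 and 6.57 against 36.6 and 15.9, the 6.57 from 1 UMI.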

How the results depend on the processing

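With no floor on expression, 249 genes were higher and 370 lower by 2-fold or more, and with a floor of 50 CPM 68 were lower (127 and 116 at 20 CPM). The ratio of Il21 shares in wild-type-labelled cells with Cd40lg over other cells was 5.21 at 5000 UMIs per cell and 7.98 with at least 2 UMIs. With at least 2 UMIs, the ratio of Inhba shares in wild-type-labelled cells with Il21 over other cells was 0.989 instead of 1.26. With an Il17a limit of 1 per 10000, the ratio of Cd40lg shares was 8.33 and 1.32 instead of 2.90 and 2.52. Ranked by a ratio of means instead of r, 3 of the 10 genes named for Cd40lg and 0 of the 10 for Il21 were named again. The first counts follow the number of genes tested, and for the rest the cause was not tested. Of the other values of main comparisons under these alternatives, 49 stayed within their counting interval or within 1.5 times for counts. Of values of single genes, 207 stayed within the 95% counting interval of the main value and 43 did not. A further 1, the ratio of 0.989 for Inhba with Il21, lay outside it and changed direction. These intervals are wide for few cells, and 16 of the 207 still moved by over 1.5 times, among them the log2 ratio of Proc (-4.23 to -0.06) and ratios of shares for St18 and Inhba in the deficient-labelled library. TMM and median-ratio scaling shifted the median of all genes by -0.003 and 0.009 on the log2 scale, and the log2 ratios of Il21, Inhba and Aig1 stayed between -1.44 and -0.99 under every alternative run. The 61 and 31 cells with Cd40lg limit each share of such cells. No paired analysis was possible because each group is 1 library.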
